A study of Mus musculus with 6 samples.

Results

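The 9 receptor genes of T, B and natural killer (NK) cells were followed in the hearts of tumour-bearing athymic mice, found in the table by gene symbol, with no threshold on a measured value. They were Cd3d, Cd3e, Cd3g, Cd4 and Cd8a of T cells, Cd79a, Cd79b and Ms4a1 of B cells, and Ncr1 of NK cells, so 9 of 45777 genes in the table. Genes were tested where their counts averaged 10 or more across libraries, which left 18328. Of the 9 genes, 6 passed (Cd3e, Cd4, Cd79a, Cd79b, Ms4a1 and Ncr1), whereas Cd3g with a mean of 4.67 counts, Cd8a with 1.5 and Cd3d with 0 did not.

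All mice were BALB/c nude (CAnN.Cg-Foxn1nu/Crl), labelled as 6 weeks of age, and carried subcutaneous xenografts of MDA-MB-231, a human breast cancer line, implanted on day 0. From day 7, for 3 weeks, Control mice received neither drug, while the Rh2-20 mg/kg and Rh2-30 mg/kg groups were injected daily with ginsenoside Rh2, a saponin of ginseng, at 20 or 30 mg/kg. The Dox group received doxorubicin, an anthracycline with known toxicity to the heart, at 2 mg/kg every other day to a cumulative 22 mg/kg, and the 2 combination groups, Rh2-20 mg/kg + Dox and the same with Rh2 at 30 mg/kg, received both drugs. In the text these 5 treated groups are called Rh2-20, Rh2-30, Dox, Rh2-20/Dox and Rh2-30/Dox. Each condition was 1 library made from the pooled RNA of 5 hearts, so no condition had replicates, and differences between single libraries carry no p-value.

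The Foxn1nu mutation stops the thymus epithelium from forming, so nude mice lack most conventional T cells, while their B cells and NK cells develop in the bone marrow. On a T cell, the chains CD3 delta, epsilon and gamma assemble with the antigen receptor and carry its signal, CD4 marks helper T cells and CD8 alpha marks cytotoxic T cells. On a B cell, CD79A and CD79B form the signalling pair of the antigen receptor, and Ms4a1 encodes CD20, while NKp46, the product of Ncr1, is an activating receptor of NK cells. In the normal heart lymphocytes are a small share of the resident leukocytes, which are mostly macrophages.

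The 3 Cd3 genes lie side by side on chromosome 9 of GRCm38.p6, the assembly on which mm10 is built. Cd3g spans 44969572 to 44980431, Cd3d 44981769 to 44987052 and Cd3e 44998735 to 45009663, with 1337 bases between Cd3g and Cd3d and 11682 bases between Cd3d and Cd3e. RefSeq promoter windows, from 250 bases before to 50 bases after the annotated start, were held for 6 of the 9 genes. They are shown for the Cd3 cluster, which held genes with and without counts, and for Cd79a, a B cell gene with one of the widest ranges of counts. Each is written 5′ to 3′ on the strand of the gene, with CAGGAAGT, a motif of the kind bound by ETS factors, or its reverse complement ACTTCCTG in capitals.
Cd3g, chr9:44980382-44980681, minus strand: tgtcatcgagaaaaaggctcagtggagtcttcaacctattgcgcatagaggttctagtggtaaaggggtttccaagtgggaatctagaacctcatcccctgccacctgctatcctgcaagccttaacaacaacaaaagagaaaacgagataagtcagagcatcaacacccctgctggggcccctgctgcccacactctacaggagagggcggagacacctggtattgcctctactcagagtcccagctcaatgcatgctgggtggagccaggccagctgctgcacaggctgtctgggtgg
Cd3d, chr9:44981536-44981835, plus strand: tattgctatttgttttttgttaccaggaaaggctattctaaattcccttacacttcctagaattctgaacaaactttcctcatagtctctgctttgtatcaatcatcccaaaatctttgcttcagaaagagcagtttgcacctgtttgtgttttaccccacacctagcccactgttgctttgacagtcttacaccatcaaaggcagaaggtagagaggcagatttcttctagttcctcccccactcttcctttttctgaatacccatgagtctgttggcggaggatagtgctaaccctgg
Cd3e, chr9:45009562-45009861, minus strand: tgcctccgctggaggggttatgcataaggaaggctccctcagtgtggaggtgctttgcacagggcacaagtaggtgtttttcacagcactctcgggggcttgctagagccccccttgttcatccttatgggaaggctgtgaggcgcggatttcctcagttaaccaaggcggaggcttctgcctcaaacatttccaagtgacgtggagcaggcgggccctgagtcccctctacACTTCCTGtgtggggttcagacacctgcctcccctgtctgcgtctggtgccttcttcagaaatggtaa
Cd79a, chr7:24897247-24897546, plus strand: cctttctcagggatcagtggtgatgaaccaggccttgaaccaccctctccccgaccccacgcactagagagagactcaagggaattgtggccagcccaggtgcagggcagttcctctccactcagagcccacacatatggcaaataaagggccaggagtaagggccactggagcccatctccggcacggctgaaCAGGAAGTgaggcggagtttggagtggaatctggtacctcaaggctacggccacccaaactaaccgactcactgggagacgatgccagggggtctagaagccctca

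The motif began 56 bases before the start of Cd79a, on the strand of the gene, and 18 bases before the start used for the Cd3e window, on the opposite strand. That start lies inside the span of Cd3e given above, and so does the motif. The windows of Cd3g, Cd3d, Cd8a and Ncr1 did not hold the motif. It was picked after the windows had been read, and 3.33% of 32851 windows of all genes held it on either strand. The TATA box TATAAA was in 13.6% of all windows and the octamer ATGCAAAT, known from immunoglobulin promoters, in 1.74%, each on either strand, and neither was in the windows of these 6 genes.

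The remaining genes lie apart from the cluster. Cd4 spans 124864693 to 124888247 and Cd8a 71373427 to 71379171, both on chromosome 6. Cd79a spans 24897497 to 24901858 on chromosome 7, where Ncr1 lies at 4337715 to 4345184, and Cd79b spans 106311341 to 106314562 on chromosome 11. Ms4a1, at 11249679 to 11266149 on chromosome 19, overlaps the long noncoding RNA 4930526L06Rik, which was listed at 0 in all 6 libraries.

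The libraries held 86164411 to 90621002 counts each, and a count of 0 allows up to 3 counts, or 0.0316 to 0.036 CPM (counts scaled to library size, after TMM scaling). Heart muscle genes were abundant in each library, the summed level of 8 of them lying between 19939 CPM in Rh2-30 and 27709 CPM in Rh2-30/Dox. All 8 were lowest in Rh2-30, and 7 of the 8 were highest in Rh2-30/Dox. The Rh2-30 library stood apart in what else it contained. Its 4 atrial genes summed to 1662 CPM, against 45.7 in Control and 62.0 to 403 in the other 4 libraries, and its 6 fat genes summed to 287 CPM, against 12 in Control and 9.09 to 40.8 in the others. The atrial myosin light chain Myl7 had 52896 counts there and 56 in Control, and Ucp1 of brown fat had 6442 and 0.

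Among the T cell genes only Cd3e had more than 36 counts in any library, and its neighbours in the cluster were at or near 0. Cd3e had 80 counts in Control, 55 in Rh2-20, 38 in Rh2-30, 220 in Dox, 97 in Rh2-20/Dox and 189 in Rh2-30/Dox. The 3 libraries with Dox were all above the 3 without, so these groups did not overlap. Cd3d was at 0 in all 6 libraries. Cd3g had 16 counts in Control, 7 in Rh2-30 and 5 in Dox, and was at 0 in the other 3 libraries, among them Rh2-30/Dox with its 189 counts of Cd3e. Cd3g was highest in Control, whereas Cd3e was highest in Dox.

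Cd8a was counted only in Control, where it had 9 counts (95% exact Poisson interval 4.12 to 17.1). Against the limit of 3 counts for a library at 0, Control was at least 3.03 to 3.41-fold higher than each of the other 5 libraries, and Cd8b1, which encodes the partner chain, was at 0 in all 6. For Cd3g, Control was at least 5.56 to 5.87-fold above the 3 libraries at 0. These bounds rest on 9 and 16 counts in 1 library, which are taken as exact. The same is so for the nonzero count in every other fold given as at least. Such bounds allow only for the counting error of the 0, so a 95% limit would be lower. All intervals on counts given here cover counting error only.

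Cd4 had 16 counts in Control, 34 in Rh2-20, 36 in Rh2-30, 12 in Dox, 8 in Rh2-20/Dox and 9 in Rh2-30/Dox. All 3 libraries with Dox were below all 3 without, the opposite order to that of Cd3e. In FPKM, the authors' estimate of fragments scaled by gene length and library size, Cd4 was at 0.043 in Control and 0.154 in Rh2-20, a wider step than in counts, and the cause of this was not tested.

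The B cell genes all had their highest counts in the Rh2-30 library. Cd79a had 21 counts in Control, 59 in Rh2-20, 165 in Rh2-30, 30 in Dox, 54 in Rh2-20/Dox and 24 in Rh2-30/Dox. Ms4a1 had 16, 34, 174, 9, 25 and 5 counts in the same order. Cd79b, the partner of Cd79a, had 70, 59, 171, 57, 47 and 34. Each of the 3 genes peaked in Rh2-30 at 165 to 174 counts, while in the other 5 libraries Cd79a did not exceed 59, Cd79b 70 or Ms4a1 34. The order of the partners was not the same in every library. In FPKM Cd79b was at 0.504 and Cd79a at 0.185 in Control, and at 1.2 and 1.42 in Rh2-30.

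Ncr1, the NK cell receptor, had the narrowest range of the 6 genes relative to its level. It had 16 counts in Control, 27 in Rh2-20, 38 in Rh2-30, 28 in Dox, 41 in Rh2-20/Dox and 25 in Rh2-30/Dox. Control was lowest, and libraries with and without Dox overlapped. Its CPM averaged 0.356 ± 0.0823 with Dox and 0.298 ± 0.104 without (SD over 3 libraries each).

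**Figure D1:**
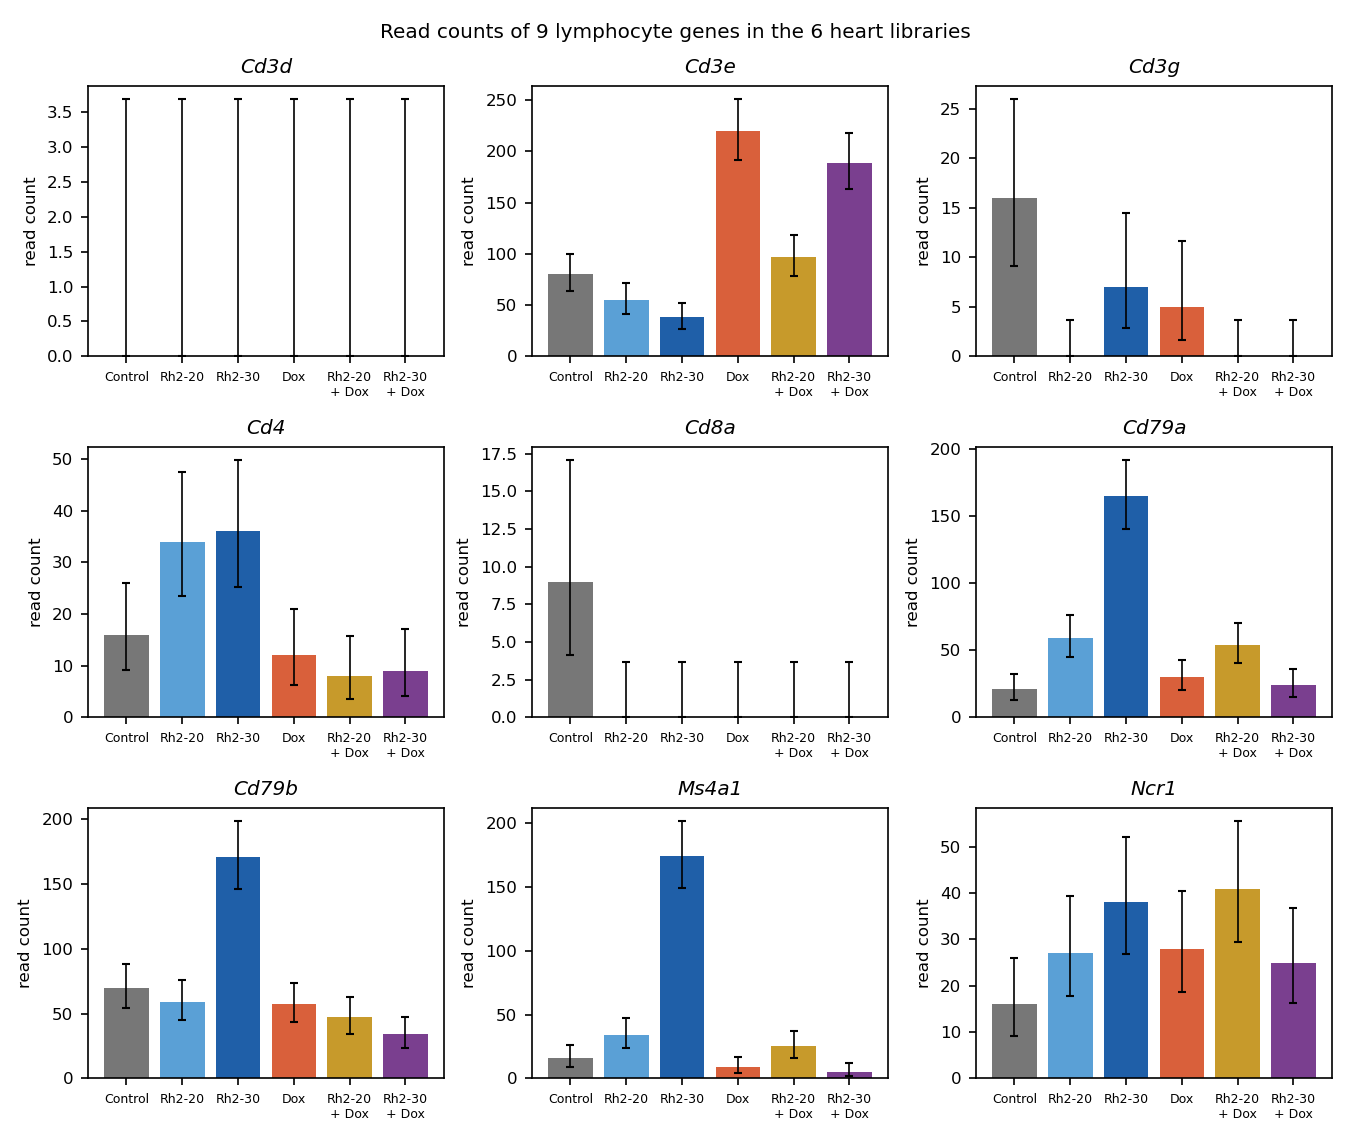
Read counts (y axis, scale set for each gene) of the 9 genes in the 6 libraries (x axis), with exact 95% Poisson intervals as bars, which cover counting error only. Cd79a, Cd79b and Ms4a1 peak at 165 to 174 counts in Rh2-30, Cd3e is at 97 to 220 in the libraries with Dox and 38 to 80 in those without, and Cd3d is at 0 throughout.

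Compared per length, Cd3e was the highest of the 9 genes on average, with an FPKM of 0.673 ± 0.451 (SD over the 6 libraries), followed by Cd79b at 0.514 ± 0.348 and Cd79a at 0.504 ± 0.468. Ncr1 was at 0.169 ± 0.0529, Ms4a1 at 0.126 ± 0.187, Cd4 at 0.0734 ± 0.0696, Cd3g at 0.0375 ± 0.0523 and Cd8a at 0.00426 ± 0.0104. Each gene from Cd3e to Cd8a differed from the next in this order by less than the larger SD of the pair. Cd3e led in Dox at an FPKM of 1.35, whereas Cd79a led in Rh2-30 at 1.42 and Cd3e was at 0.213 there. In bulk tissue, a lower level from fewer cells of a type and one from less RNA per cell cannot be told apart.

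The effect of Dox was tested with the 3 libraries that received it, at Rh2 doses of 0, 20 and 30 mg/kg, against the 3 that did not, by the quasi-likelihood test of edgeR with Benjamini-Hochberg adjustment over all 18328 genes. None of the 6 genes passed an adjusted p of 0.05, which 5 genes of all tested did (0.0273%). At an unadjusted p under 0.05, 4 of the 6 passed, 1 higher and 3 lower with Dox, against 10.1% of all genes. Cd3e was higher with Dox by 1.57 ± 0.446 on the log2 scale (SE, unadjusted p = 0.00962, adjusted p = 0.344). Cd4 was lower by -1.50 ± 0.462 (unadjusted p = 0.0138, adjusted p = 0.366). By DESeq2's Wald test 423 genes passed after adjustment and none of the 6, Cd3e being nearest (adjusted p = 0.0507). No overlap between the groups was found for these 2 genes, 1 higher and 1 lower, where 7.85% of all genes did not overlap with Dox higher and 9.16% with Dox lower.

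For the B cell genes the estimates were negative and less certain. Ms4a1 differed by -2.44 ± 0.959 (unadjusted p = 0.0378, adjusted p = 0.458), Cd79b by -1.06 ± 0.447 (unadjusted p = 0.0492, adjusted p = 0.493) and Cd79a by -1.11 ± 0.685 (adjusted p = 0.634). These differences leaned on the Rh2-30 library. Without it, Ms4a1 differed by -0.949, Cd79b by -0.491 and Cd79a by -0.149, and 2 rather than 4 of the 6 genes had an unadjusted p under 0.05, as also without Dox and without Rh2-30/Dox. Cd3e, in contrast, lay between 1.30 and 1.95 with each library left out in turn, and Cd4 between -1.76 and -1.34, although neither passed the adjusted threshold in any of these fits. Ncr1 differed by 0.256 ± 0.41 (adjusted p = 0.876).

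With Rh2, the 4 libraries at 20 or 30 mg/kg were set against Control and Dox by the same test. No gene of 18328 passed an adjusted p of 0.05 (0%), and at an unadjusted p under 0.05 none of the 6 passed, against 1318 genes or 7.19% of all. With DESeq2's Wald test 127 genes passed and again none of the 6. Ms4a1 was higher by 2.08 ± 1.30 (adjusted p = 0.736) and Cd79a by 1.42 ± 0.747 (adjusted p = 0.704), while Cd3e was lower by -0.754 ± 0.706 (adjusted p = 0.806). All 6 genes overlapped between these groups, where 9.87% of all genes lay without overlap on the higher side and 9.08% on the lower. The spread among the Rh2 libraries was wide, as Ms4a1 had 174 counts in Rh2-30 and 5 in Rh2-30/Dox.

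Each treated library was also compared with Control, as a log2 ratio with a prior count of 0.5, and a gene was called where the fold was at least 2 and the 95% interval of the ratio, from the exact binomial, excluded no change. A second, wider interval added the spread between libraries of genes at the same count level, estimated from the 6 libraries as 1 group and so including differences between treatments. The 5 comparisons share the Control library.

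In Rh2-30, 4 of the 6 genes were called higher and 1 lower, against 8.11% and 1.51% of all genes. Ms4a1 had a log2 ratio of 3.22 (95% interval 2.52 to 4.09) and Cd79a one of 2.76 (2.13 to 3.52). Cd79b was at 1.10 (0.692 to 1.52), Ncr1 at 1.04 (0.184 to 2.00) and Cd3e at -1.25 (-1.86 to -0.686). Only Ms4a1 and Cd79a also excluded 0 with the wider interval, which ran from 0.923 to 5.51 and from 0.667 to 4.85, as did 4.27% of all genes. With 20 mg/kg of Rh2 alone, Cd79a was the 1 gene called, at 1.36 (0.638 to 2.17), where 2.88% of all genes were called higher and 2.53% lower. Ms4a1 stood at 0.952 and Cd4 also at 0.952, both short of a fold of 2.

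In the Dox library 1 of the 6 genes was called, Cd3e with a log2 ratio of 1.44 (1.07 to 1.83), while 5.01% of all genes were called higher and 3.22% lower. The B cell genes were not called there, Cd79a being at 0.492, Cd79b at -0.307 and Ms4a1 at -0.809. With Rh2-20/Dox, Cd79a at 1.2 (0.474 to 2.03) and Ncr1 at 1.19 (0.355 to 2.15) were called higher, against 4.78% of all genes higher and 3.39% lower, and Cd3e was at 0.139. With Rh2-30/Dox, Cd3e was called higher at 1.17 (0.795 to 1.58), and Cd79b at -1.09 (-1.74 to -0.492) and Ms4a1 at -1.65 (-3.54 to -0.225) were called lower, against 3.57% of all genes higher and 6.43% lower. None of the 6 genes excluded 0 with the wider interval in these comparisons or in Rh2-20, where 0.802% of all genes did in Rh2-20, 2.92% in Dox, 2.71% in Rh2-20/Dox and 4.45% in Rh2-30/Dox.

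**Figure D2:**
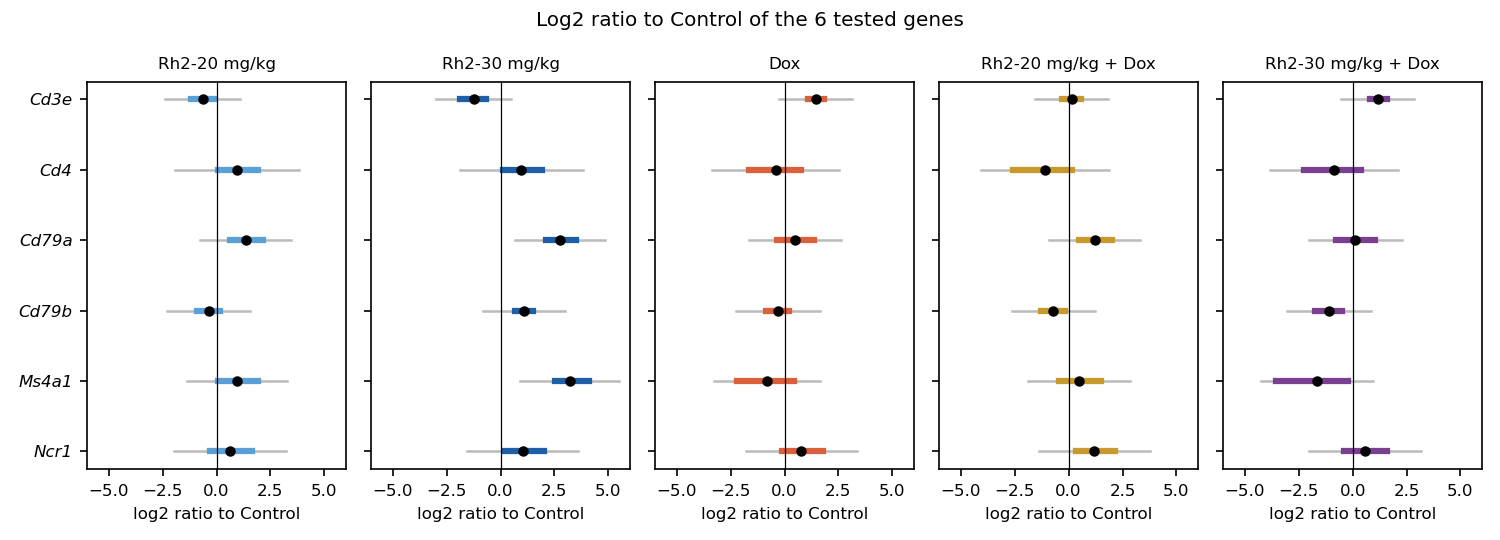
Log2 ratio to Control (x axis) of the 6 tested genes (y axis), 1 panel for each treated library. Points are ratios, thick lines the 95% counting intervals and thin grey lines the wider intervals with the spread between libraries. In Rh2-30, Cd79a at 2.76 and Ms4a1 at 3.22 have thin lines that stay above 0.

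Whether adding Rh2 to Dox moved these genes was asked by setting each combination against Dox alone. Rh2-20/Dox had less Cd3e, at a log2 ratio of -1.30 (-1.67 to -0.955), and more Ms4a1, at 1.30 (0.202 to 2.63), with 2.67% of all genes called higher and 3.13% lower. In Rh2-30/Dox none of the 6 was called, where 2.41% of all genes were called higher and 6.99% lower, although all 6 ratios were negative, from -0.837 for Ms4a1 to -0.209 for Ncr1. Cd3e was at -0.267 (-0.556 to 0.0197) in that library, so the lower of the 2 Rh2 doses had the lower Cd3e. No interval with the spread between libraries excluded 0 for any of the 6 genes in either comparison, as 1.25% and 4.62% of all genes did.

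Wider lists of lymphocyte genes, 29 of T cells, 27 of B cells and 25 of NK cells, none of them among the 9, showed how far each gene moved with other genes of its cell type. Of these, 19, 25 and 12 genes were tested. The list of B cell genes was the most uniform. In Rh2-30 against Control, 19 of 25 were called higher and none lower, against 8.11% and 1.51% of all genes. The median log2 ratio of the list was 1.58, against 0.0334 over all genes. The level was highest of the 6 libraries in Rh2-30 for 22 of the 25, against 26.1% of all genes, and for 4 of the 6 receptor genes.

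Among them, Cr2, the complement receptor CD21 of mature B cells, had 689 counts in Rh2-30 and 48 to 82 in the other 5 libraries. Ighm, the heavy chain of IgM, had 2609 and 541 to 1017, and Igkc, the kappa light chain, had 928 and 112 to 167. Cxcr5, the chemokine receptor that guides B cells into follicles, had the largest ratio of the list, with 5 counts in Control and 82 in Rh2-30, a log2 ratio of 3.72 (2.57 to 5.51). With the wider interval 9 of the 19 excluded 0, as did 4.27% of all genes.

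At the other end, Rh2-30/Dox had the lowest level of 17 of the 25 B cell genes, against 23.1% of all genes. There, 10 were called lower than in Control and none higher, against 6.43% and 3.57% of all genes, with a median log2 ratio of -0.744. Against Dox alone, 8 were called lower in Rh2-30/Dox and none higher, where 6.99% and 2.41% of all genes were. Blk, a kinase of the Src family active in B cells, had 47 counts in Control and 0 in this library, at least 16.3-fold lower. Cd72, an inhibitory co-receptor, had 529 counts in Control, 500 in Rh2-20, 615 in Rh2-30, 313 in Dox, 303 in Rh2-20/Dox and 135 in Rh2-30/Dox. Its groups with and without Dox did not overlap, as was so with Dox lower for 9.16% of all genes. In the other comparisons with Control, 2 B cell genes were called higher and 3 lower in Rh2-20, beside 2.88% and 2.53% of all genes. In Dox 2 and 4 were called, beside 5.01% and 3.22%, and in Rh2-20/Dox 0 and 1, beside 4.78% and 3.39%.

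In the test of Dox, 24 of the 25 B cell genes had negative estimates, with a median of -1.29 on the log2 scale against -0.0148 over all genes. At an unadjusted p under 0.05, 9 were lower and none higher, where 10.1% of all genes passed in either direction. None of the 25 passed after adjustment by edgeR. By DESeq2's Wald test 1 passed, Cd72 at -1.09 (adjusted p = 0.0372). Without the Rh2-30 library the median was -0.474 over 23 genes, with 20 negative, and 3 were lower at an unadjusted p under 0.05. Without Rh2-30/Dox the median was -0.973, again with 3 lower. With Rh2 the median of the list was 0.499, or -0.342 without the Rh2-30 library, and no gene passed, adjusted or not, when all libraries were used. Negative estimates in the test of Dox were not particular to B cell genes. They were found for all 7 tested dendritic cell genes (median -0.986), all 7 pan-leukocyte genes (-0.293) and 8 of 10 macrophage genes (-0.488). The 6 tested neutrophil genes all had positive estimates (1.04).

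The T cell list had genes called in both directions in 4 of the 5 comparisons with Control, and its median log2 ratio lay between -0.376 and 0.322. In Rh2-30, 3 of the 19 were called higher and none lower, beside 8.11% and 1.51% of all genes. In Dox 4 were called higher and 2 lower, beside 5.01% and 3.22%. The counts were 2 and 1 in Rh2-20, beside 2.88% and 2.53%. They were 3 and 3 in Rh2-20/Dox, beside 4.78% and 3.39%, and 2 and 4 in Rh2-30/Dox, beside 3.57% and 6.43%. Against Dox, which both comparisons share, 15 of the 19 ratios were negative in each combination, with medians of -0.376 in Rh2-20/Dox and -0.607 in Rh2-30/Dox. There 3 and 2 genes were called lower, beside 3.13% and 6.99% of all genes, and none higher. In the test of Rh2, 14 of the 19 estimates were negative, with a median of -0.285, and none had an unadjusted p under 0.05 or passed after adjustment by edgeR or DESeq2's Wald test. In the test of Dox, 3 of the 19 were higher and 2 lower at an unadjusted p under 0.05, against 10.1% of all genes in either direction. None of the 19 passed after adjustment by edgeR or by DESeq2's Wald test. Trdc, the constant region of the delta chain of gamma-delta T cells, had 28 counts in Control, 18 in Rh2-20, 28 in Rh2-30, 289 in Dox, 190 in Rh2-20/Dox and 10 in Rh2-30/Dox. High counts of Trdc were seen in Dox and Rh2-20/Dox but not in Rh2-30/Dox, whereas Cd3e was high in both Dox and Rh2-30/Dox. Trac, the constant region of the alpha chain, had 25, 27 and 47 counts in Control, Rh2-20 and Rh2-30 and 23, 20 and 20 in Dox, Rh2-20/Dox and Rh2-30/Dox. All 3 libraries with Dox were below the 3 without, as for 9.16% of all genes. The difference of Trac was -0.60 ± 0.38 on the log2 scale (edgeR, adjusted p = 0.644).

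Cd247, the zeta chain that joins the CD3 chains in the receptor, had 35, 31 and 50 counts in Control, Rh2-20 and Rh2-30 and 14, 8 and 17 in Dox, Rh2-20/Dox and Rh2-30/Dox. It was lower with Dox by -1.52 ± 0.44 (edgeR, adjusted p = 0.347), in the opposite direction to Cd3e. Its groups did not overlap, as was so with Dox lower for 9.16% of all genes. Lck, the kinase that starts signalling from the receptor, had 25 counts in Control, 50 in Dox and 0 in Rh2-30/Dox, where Cd3e had 189, so Lck was at least 17.2-fold lower there than in Dox. Tigit, an inhibitory receptor of T and NK cells, had no count in Control and ranged from 258 to 533 elsewhere, at least 85.2 to 156-fold higher. Whether its 0 in Control is absence or a failed assignment of reads to the gene was not tested, and the bounds do not cover the latter. It was the largest ratio of the T cell list in all 5 comparisons with Control. Neither Cd247 nor Lck followed the order of Cd3e over the 6 libraries.

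The remaining extremes of the T cell list were small in counts, apart from Ctla4. Zap70, the kinase that docks on the CD3 and zeta chains, had 14 counts in Control and 3 in Rh2-20, a log2 ratio of -2.16 (-4.77 to -0.493). Ctla4, an inhibitory receptor, had 110 counts in Control and 35 in Dox, at -1.65 (-2.26 to -1.10). Trbc1, a constant region of the beta chain, had 24 counts in Dox and 0 in Rh2-20/Dox, so it was at least 8.72-fold lower there.

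On the B cell list, Fcrl1, an Fc receptor-like protein of B cells, had 37 counts in Control, 0 in Dox and 22 in Rh2-20/Dox, at least 12.4-fold lower in Dox than in Control and at least 6.73-fold higher in the combination than in Dox. Its relative Fcrla had 8 counts in Control and 0 in Rh2-20/Dox, at least 2.93-fold lower. Cxcr5 had 25 counts in Rh2-20, at 2.1 (0.799 to 3.95) against Control, and Blk had 17, at -1.55 (-2.47 to -0.752). Jchain, the joining chain of secreted immunoglobulin, had 42 counts in Dox and 9 in Control, at 2.15 (1.15 to 3.43), the largest ratio of the list in Dox. Other genes of the list varied in direction. In Control and Dox, Mzb1 had 64 and 62 counts, Ighm 1017 and 784 and Igkc 167 and 144, while Ighd had 130 and 170 and Iglc2 19 and 27.

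For the NK cell list the median log2 ratio to Control was 0.873 in Dox, with 5 of 12 genes called higher and 1 lower. It was 0.667 in Rh2-30, with 4 higher and none lower. Of all genes, 5.01% were called higher and 3.22% lower in Dox, and 8.11% and 1.51% in Rh2-30. Both combinations lay below Dox, with medians of -0.954 in Rh2-20/Dox and -1.12 in Rh2-30/Dox. In each, 6 of the 12 genes were called lower, and 1 was called higher in Rh2-20/Dox. Against Dox, 2.67% of all genes were called higher and 3.13% lower in Rh2-20/Dox, and 2.41% and 6.99% in Rh2-30/Dox. Dox held the highest level of 6 of the 12 genes, against 18.8% of all genes. Nkg7, a protein of cytotoxic granules, had no count in Control and 30 in Dox, at least 9.91-fold higher, and Gzma, a granule protease, had 15 and 66 counts. Against Dox, Gzma was at -3.64 (-5.44 to -2.48) in Rh2-30/Dox, with 5 counts, and Cd244a, the receptor 2B4, was at 1.30 (0.596 to 2.1) in Rh2-20/Dox. The largest falls against Control were Gzma at -1.61 in Rh2-20 and -1.56 in Rh2-30/Dox, Klrc1, the NKG2A chain, at -1.61 in Rh2-20/Dox, and S1pr5, a receptor for sphingosine 1-phosphate, at -1.2 in Dox. Ncr1 was at 0.776 (-0.141 to 1.78) in the same comparison and was not called. In the test of Dox 1 of the 12 genes had an unadjusted p under 0.05, against 10.1% of all genes. None passed after adjustment by edgeR or DESeq2. In the test of Rh2 1 of the 12 had an unadjusted p under 0.05, against 7.19% of all genes. This was Klrd1, the CD94 chain of NK receptors, at -1.13 ± 0.425 (edgeR, adjusted p = 0.679).

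**Figure D3:**
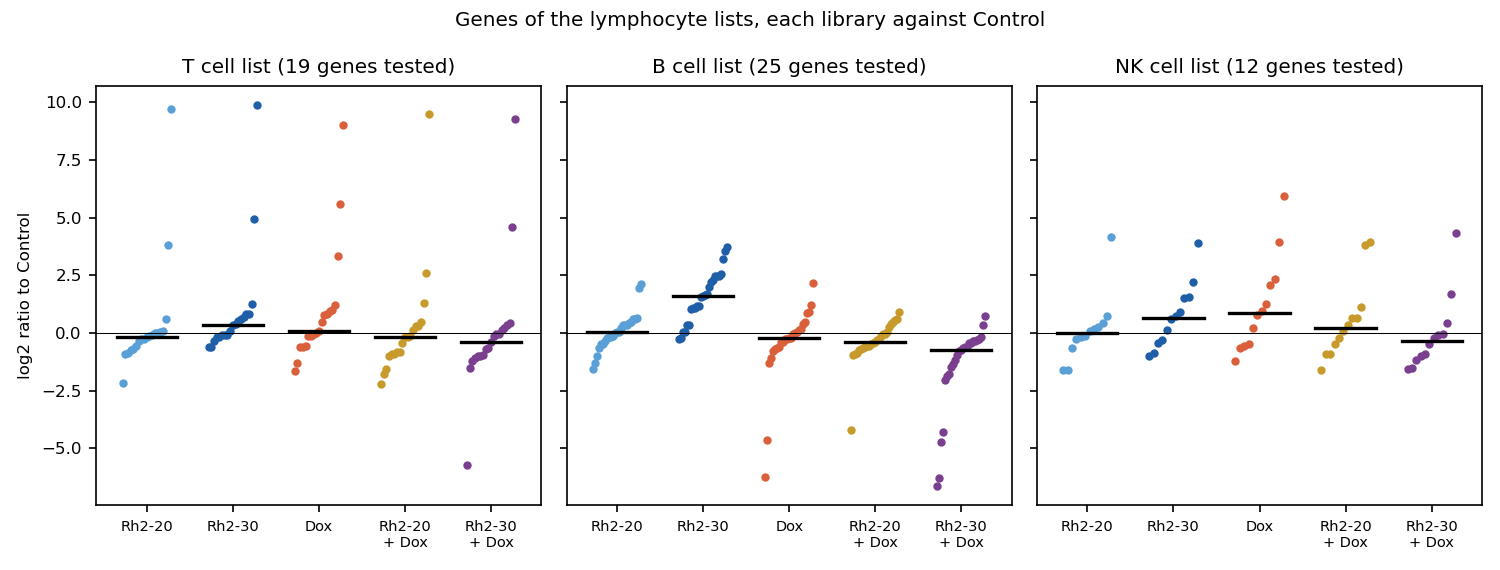
Log2 ratio to Control (y axis) of each tested gene in the T, B and NK cell lists, sorted within each of the 5 treated libraries (x axis), with the median as a black line. In the B cell panel the Rh2-30 points lie highest, with a median of 1.58, and the Rh2-30/Dox points lowest, with a median of -0.744. Points for genes at 0 in 1 of the libraries depend on the prior count.

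Some markers of other tissues were also highest in Rh2-30, and their order over the other libraries matched that of the B cell genes only in part. Ebf1, a B cell factor that stromal and fat cells also use, had 6503 to 10070 counts and outweighed the rest of its list, so it was left out of the sum after its values had been seen. The other 26 B cell genes summed to 96.9 CPM in Rh2-30, 42.9 in Control, 42.8 in Rh2-20, 35.1 in Dox, 31.2 in Rh2-20/Dox and 20.3 in Rh2-30/Dox. In Rh2-30 all 6 fat genes and all 4 atrial genes were called higher than in Control, as were 8.11% of all genes. The atrial genes also summed to 379 CPM in Dox and 403 in Rh2-20/Dox, against 45.7 in Control. The B cell sum was below Control in both. Of 10 genes of lymph node and thymus stroma 7 were tested, and 4 were called higher in Rh2-30 and none lower. Among the 4, Glycam1 and Fcgbp reached a mean of 10 counts only through Rh2-30. The 10 summed to 43.4 CPM in Rh2-30, against 20.8 to 39.2 in the other libraries. Their sum was lowest in Rh2-30/Dox, as were the B cell sum and the fat sum, the latter at 9.09 CPM. The atrial sum was lowest in Control. A list of 5 lung genes summed to 8.69 CPM in Rh2-30 and was lowest in Rh2-20, at 0.466 CPM. Glycam1, a mucin of the high endothelial venules of lymph nodes, had 186 counts in Rh2-30, 2 in Rh2-20/Dox and 0 in the other 4. Cxcl13, the chemokine that draws B cells to follicles, had 238 counts in Rh2-30 and 160 in Rh2-20/Dox. It had 50 in Dox, 22 in Rh2-30/Dox, 4 in Rh2-20 and 2 in Control. The part of these tissues in the B cell counts was not tested.

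General leukocyte genes followed at a smaller size. The 7 pan-leukocyte genes summed to 124 CPM in Rh2-30, 95 in Control and 64.4 in Rh2-30/Dox, where all 7 were lowest, and the 10 macrophage genes summed to 577, 379 and 327 CPM. Erythroid genes summed to 10560 CPM in Dox, 5922 in Rh2-20/Dox, 1660 in Rh2-30/Dox and 2620 to 3629 in the 3 libraries without Dox, so they were high in Dox and Rh2-20/Dox and lowest of all 6 in Rh2-30/Dox. Their part in the counts of the lymphocyte genes was not tested. The thymus gene Psmb11 was at 0 in all 6 libraries and Prss16 at 0 to 7 counts.

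**Figure D4:**
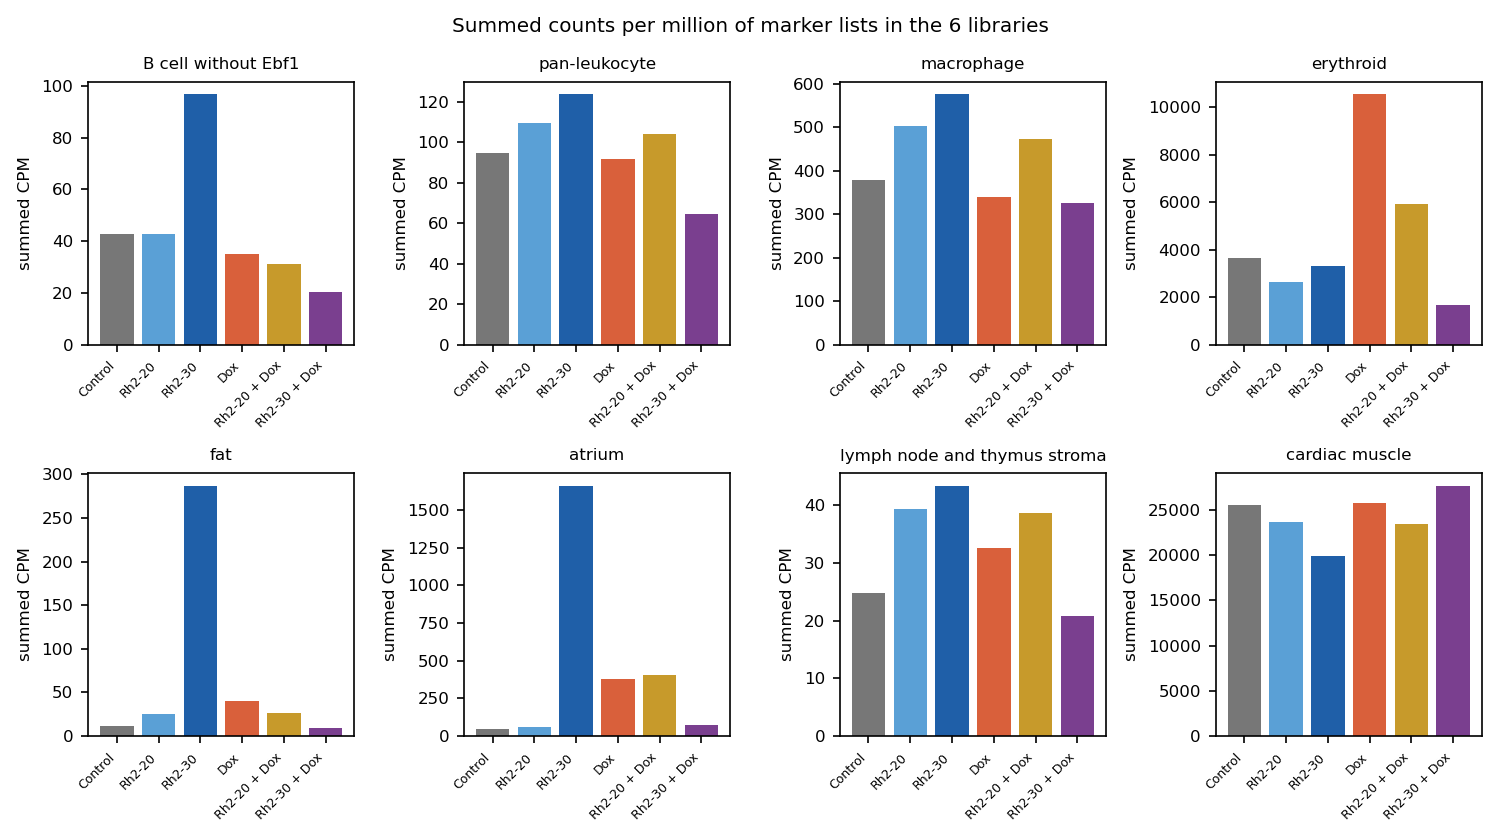
Summed CPM (y axis, scale set for each list) of 8 marker lists in the 6 libraries (x axis). The B cell list without Ebf1 is highest in Rh2-30 at 96.9 CPM, the library in which the fat list is at 287 CPM and the atrial list at 1662 CPM, and lowest in Rh2-30/Dox at 20.3 CPM.

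The 6 genes fell into differing patterns over the libraries. In log2 CPM the Pearson correlation over the 6 libraries was 0.925 between Cd79a and Ms4a1, 0.858 between Cd79b and Ms4a1 and 0.715 between Cd79a and Cd79b. Cd3e and Ms4a1 had -0.922, and Cd3e and Cd4 -0.769, so Cd3e ran against both. The genes closest to each of the 6 were Gabrr2 for Cd3e (0.997), Hspb11 for Cd4 (0.995), Tmem179b for Cd79a (0.998), Fcer2a, the low-affinity IgE receptor of B cells, for Cd79b (0.997), Mcm3 for Ms4a1 (0.998) and Ifitm2 for Ncr1 (0.996). With only 6 points such values are common. Between 146 genes, for Cd4, and 504, for Cd3e, of 18327 reached 0.9, and of the 18 closest genes, 3 for each, Fcer2a was the only one on the B, T or NK cell lists. Next in closeness were Rnf34 and BC034090 for Cd3e, Sash3 and Tlr11 for Cd4, Gpm6b and Smpd3 for Cd79a, 1810055G02Rik and Kcna6 for Cd79b, Gm41620 and Il6st for Ms4a1, and Amigo2 for Ncr1. These correlations are descriptions, since the points share their libraries and no condition was replicated.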

How the data were processed

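Hearts of 6 conditions were profiled as 1 library each after capture with SureSelectXT RNA Direct, and 101-base reads were made on a HiSeq2500. Per the labels, the authors used bcl2fastq 2.20.0, Trimmomatic, HISAT2 2.1.0 and StringTie 2.1.3b on mm10. The deposited table holds the authors' read counts per gene, estimated by StringTie, with FPKM values that the authors scaled by gene length and library size, and TPM values, which were not used here. Whether both reads of a fragment were counted is not given in the sources used here. The study's methods name wild-type mice once, whereas the labels name the nude strain, which is used here.

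Groups were taken from the sample titles. The 3 libraries with Dox were tested against the 3 without, and the 4 with Rh2 against the 2 without, with the quasi-likelihood test of edgeR 4.0.16 (limma 3.58.1, R 4.3.3) after TMM scaling, two-sided, across the 18328 genes averaging 10 or more counts, with Benjamini-Hochberg adjustment at 0.05. The 3 or 4 libraries of a group differ in the other drug, so p-values measure the spread between pooled libraries that were not treated alike. Single libraries were compared by log2 ratios with exact binomial intervals and no p-value. The wider interval and the halved counts were added after the values had been seen. The test was checked only on simulated counts of true replicates, with less spread between libraries than in these data. That check therefore does not show how the test performs for these genes.

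The 9 genes and all lists were chosen with earlier results of these data known. Named genes are the 9, the list genes with the largest rise and fall among those called in each comparison, any list gene passing an adjusted p of 0.05, and the 3 genes whose log2 CPM correlated best with each tested receptor gene; some genes that met the rule are not reported here. Others (Cr2, Ighm, Igkc, Cd247, Trac, Klrd1, Cd226, Cd72, Trdc, Foxp3, Tnfrsf13c, Vpreb3, Cd8b1, S100a9 and the marker genes of other tissues) were chosen after their values had been seen. Alternatives were DESeq2 1.42.0 size factors and Wald test, no filter, each library left out, Rh2 dose as a block, Dox as a term, a prior count of 2, FPKM plus 0.1, halved counts and the wider interval. Sequences and positions came from RefSeq for GRCm38.p6. Scripts used Python 3.11.15, pandas 2.3.3 and matplotlib 3.10.9.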

Additional observations from a re-analysis of the deposited data

Results flagged for a closer look

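In 2 genes of the lists, both Rh2 libraries lay above Control, both combinations lay below Dox, and all 4 counting intervals excluded no change. The difference between these effects was not tested. Jchain, the joining chain of secreted immunoglobulin, had 9 counts in Control, 39 in Rh2-20, 126 in Rh2-30, 42 in Dox, 12 in Rh2-20/Dox and 12 in Rh2-30/Dox. The log2 ratios of Rh2 for Jchain were 1.944 at 20 mg/kg and 3.548 at 30 mg/kg against Control, and -1.89 and -1.814 against Dox.

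Nkg7 had 0, 9, 8, 30, 8 and 10 counts in the same order. The log2 ratios of Rh2 for Nkg7 were 4.136 and 3.901 against Control and -1.968 and -1.587 against Dox. The first 2 depend on the prior count, because Control was at 0, and with the limit of 3 counts Nkg7 was at least 2.78-fold higher at 20 mg/kg and 2.34-fold at 30 mg/kg. Among the receptor genes Cd4 had the same signs, at 0.952 and 0.959 without Dox and -0.681 and -0.444 with Dox, but the last 2 intervals included 0.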

How the results depend on the processing

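None of the 6 tested receptor genes passed an adjusted p of 0.05 in either test under any alternative, and in the test of Dox all 6 kept their direction throughout. At an unadjusted p under 0.05, 2 to 4 of the 6 passed with Dox over the alternatives and 0 to 1 with Rh2. Over all genes, 5 passed with Dox, 423 by DESeq2's Wald test, 0 with the Rh2 dose as a block and 0 to 14 with each library left out, with 14 without Rh2-30/Dox, 3 without Rh2-30 and 0 without any 1 of the other 4. With Rh2, 0 passed, 127 by the Wald test and 0 to 20 with each library left out, 20 being the count without Control. The causes were not tested. In the test of Rh2, 2 genes changed sign. Cd3e, at -0.754 with all libraries, ranged from -1.373 to 0.143 with each library left out and was positive without Dox. Cd79b, at 0.148, ranged from -0.534 to 0.3839, was -0.534 without Rh2-30, and was -0.0388 with Dox as a term.

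Counts of called receptor genes against Control rose with no filter on low counts, because Cd3g and Cd8a then entered. They were 3 in Rh2-20, 4 in Rh2-20/Dox, 5 in Rh2-30/Dox and 3 in Dox, where 1, 2, 3 and 1 were called otherwise. With the wider interval, 2 receptor genes and 9 B cell genes were called in Rh2-30, where 5 and 19 were called by counting error alone. In every other comparison it left 0 receptor genes, and 0 B cell genes except 2 in Rh2-30/Dox. Genes at 0 in either library are left out of that interval. With counts halved, 1 receptor gene was called in Rh2-20/Dox against Dox, and 0 B cell genes in Rh2-20/Dox against Control. The other halved counts stayed within 1.5 times. On FPKM plus 0.1 the ratio of Ms4a1 in Rh2-30 was 2.03.

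With 1 pooled library for each condition, differences between conditions and between pools cannot be told apart. Counts of 5 to 40 leave wide intervals. Values of 2 counts numbered 4162 and values of 1 count 3575 in the deposited data, and if both reads of a fragment were counted, the counting intervals are too narrow.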

Other observations

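Cd226, an adhesion receptor of NK and T cells that platelets also carry, was the most abundant gene of the NK cell list. It had 121 counts in Control, 138 in Rh2-20, 398 in Rh2-30, 1859 in Dox, 1853 in Rh2-20/Dox and 171 in Rh2-30/Dox. Its counts in Dox and Rh2-20/Dox differed by a log2 ratio of -0.130 (-0.223 to -0.0359), and Rh2-30/Dox was at -3.49 against Dox. Trdc and the summed erythroid genes were also high in Dox and Rh2-20/Dox. They were lowest in Rh2-30/Dox, whereas Cd226 was lowest in Control. In the test of Dox, Cd226 was higher by 2.62 ± 0.863 (edgeR, adjusted p = 0.394), so it did not pass. The part of blood cells in these counts was not tested.

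Foxp3, the factor of regulatory T cells, had 28 counts in Rh2-30 and 0 in the other 5 libraries. Tnfrsf13c, the BAFF receptor of B cells, had 26 counts in Rh2-30, 3 in Rh2-30/Dox and 0 in the other 4. Vpreb3, a B lineage gene, had 10 in Rh2-30 and 0 elsewhere. These 3 genes were below a mean of 10 counts and were not tested, and they were chosen after their values had been seen.

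Neutrophil genes had another order. The 8 genes summed to 42.9 CPM in Rh2-20/Dox, 28.2 in Rh2-20, 25.2 in Rh2-30/Dox, 16.5 in Rh2-30, 16.2 in Dox and 15.0 in Control. All 6 tested were highest in Rh2-20/Dox and called higher there than in Control. S100a9, a calcium-binding protein of neutrophils, had 204 counts in Control and 810 in that library.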
